A study of Mus musculus with 6 samples.

Results

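The genes described here are 40 genes of mitosis, the spindle and the kinetochore, chosen by name with earlier results of these data known. They comprise 10 genes of mitotic entry (kinases, cyclins, phosphatases and a kinase cofactor), 7 genes of the spindle checkpoint and anaphase, 4 of the chromosomal passenger complex, 6 of the kinetochore and centromere, 5 of spindle assembly and its motors, 6 of the central spindle and cytokinesis, and 2 of mitotic chromosome structure. All 40 were present among the 16455 genes listed in the count table, and all 40 were among the 13630 genes that had enough reads to be tested. RNA-seq was performed on primary osteoblasts, the bone-forming cells, which were obtained by enzymatic digestion of calvarial bone of pups at the age of 3 days and kept in culture for 3 days. The 3 WT libraries were compared with 3 libraries of triple conditional knockout (TCKO) mice of the same C57/B6 strain, in which Prx1-Cre recombined floxed alleles of all Tet genes (Tet1 fl/fl, Tet2 fl/fl and Tet3 fl/fl). Prx1-Cre is active in the mesenchyme of the limb and of part of the skull, so cells of another origin in a TCKO culture keep their Tet genes. The sources used here do not state whether WT mice carried floxed alleles or how many animals went into a culture. TET enzymes oxidise methylated cytosine in DNA, and the comparison asks how transcripts of the mitotic machinery differ between WT cultures and cultures that carry the recombined alleles.

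A cell enters mitosis when CDK1, bound to cyclin B, is released from inhibitory phosphorylation by CDC25 phosphatases, with PLK1 and Aurora A acting upstream. Kinetochores then bind spindle microtubules, the spindle checkpoint holds back the anaphase-promoting complex until every chromosome is attached, and separase opens the cohesin rings so that sister chromatids part. Transcripts of these genes rise in G2 and mitosis and are low in resting cells, and their promoters commonly carry CCAAT boxes, bound by NF-Y, and the cell cycle genes homology region (CHR), bound by the MuvB complex together with B-MYB (Mybl2) and FOXM1. In a culture of bone cells they are commonly read as marks of proliferation. A higher level in RNA from a whole culture can come from more cells in division or from more RNA per dividing cell, and these cannot be told apart here.

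Total counts ran from 8119261 to 10657824 reads per library, so that 1 CPM, a count scaled to library size, stood for 8.14 to 10.5 reads. Replicates 1 and 2 of each genotype were much closer to each other than to replicate 3. Over all genes, the chi-square per gene between replicates 1 and 2 was 1.75 in WT and 2.53 in TCKO, against 15.8 to 23.0 for any pair that included replicate 3. Over the 40 mitotic genes, WT replicates 1 and 2 agreed within sampling noise (0.688 per gene, chi-square test p = 0.933), as did TCKO replicates 1 and 2 (1.12 per gene, p = 0.283). The labels name no separate animal, litter or culture for a library, so p-values here measure how far these libraries varied, a spread that could be technical, and results are also given with replicates 1 and 2 summed. Among the targeted genes, Tet1 fell by 0.94 on the log2 scale (SE 0.22, edgeR adjusted p = 0.0207), Tet2 did not pass the test (-0.29, adjusted p = 0.244) and Tet3 was higher by 0.48 (adjusted p = 0.00803). The table gives 1 count per gene, which may include exons that the floxed alleles leave intact. This is therefore an incomplete check of the genotype labels, and TCKO stands for the libraries labelled TCKO throughout. Of the osteoblast markers, Bglap and Dmp1 were not listed, whereas Runx2, Sp7 and Col1a1 were expressed in every library. The sum of 9 of 11 osteoblast markers was 41511 to 44662 CPM in WT and 21716 to 38040 CPM in TCKO. These markers moved in opposite directions, since 4 (Runx2, Col1a1, Alpl and Sparc) were lower and 1, Spp1, was higher by 2.69 on the log2 scale (adjusted p = 0.0240). The sum of 8 of 8 chondrocyte markers was 6448 to 8533 CPM in WT and 725 to 997 CPM in TCKO, and all 8 were lower in TCKO at an adjusted p under 0.05. The sum of 11 of 11 macrophage markers was 468 to 859 CPM in WT and 179 to 621 CPM in TCKO, with the lowest value in replicate 3 of each genotype. Most of it was Lyz2, at 331 to 635 CPM in WT, which did not pass. Of the 11, 2 were lower and 0 higher at an edgeR adjusted p under 0.05. The 2 were Adgre1, listed as Emr1 (-1.54, adjusted p = 0.00356), and Itgam (-1.03, adjusted p = 0.0287). The sum of 3 of 6 osteoclast markers was 123 to 135 CPM in WT and 22.5 to 37.1 CPM in TCKO. Most of it was Ctsk, at 113 to 131 CPM in WT, the 1 marker that was lower at an adjusted p under 0.05. Acp5 and Mmp9 did not pass, with log2 fold changes of 0.28 and 0.39. The sum of 4 of 5 muscle markers was 5.03 to 13.7 CPM in WT and 24.6 to 55.6 CPM in TCKO. Of these, Acta1 was higher by 3.08 on the log2 scale (adjusted p = 0.0111), Des did not pass, and the defining factors Myog and Myod1 had 0 to 10 reads per library. The sum of 3 of 5 Schwann cell and neuron markers was 49.5 to 64.7 CPM in WT and 61.9 to 72.8 CPM in TCKO. The 1 of 4 keratinocyte markers listed, Trp63, was at 1.32 to 4.604 CPM in WT and 0 to 0.332 CPM in TCKO, and endothelial, erythroid, and lymphocyte and mast cell markers summed to at most 3.04, 0.664 and 1.38 CPM in any library. The part of these other cells in the results on mitotic genes was not tested.

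All 40 mitotic genes had a higher mean level in TCKO than in WT osteoblasts. With edgeR, 23 of the 40 (57.5%) were higher in TCKO at an adjusted p under 0.05, 0 were lower at an adjusted or an unadjusted p under 0.05, and 17 did not pass. Of all genes tested, 9.44% were higher and 8.9% were lower by the same rule. The 40 log2 fold changes had a median of 0.80, a fold of 1.75, and ran from 0.18 for Cdc25b to 1.17 for Bub1, whereas the median over all genes tested was -0.00109. A fold above 2 together with the adjusted p was reached by 5 mitotic genes, Bub1, Espl1, Ttk, Kif2c and Ccnb1, against 3.01% of all genes tested. In 36 of the 40 genes, every TCKO library was above every WT library, which held for 19.3% of all genes tested. Among the 17 genes that did not pass, 13 also had no overlap between genotypes, and 12 had an adjusted p under 0.1. The summed level of the 40 genes was 700.1, 693 and 1142 CPM in WT replicates 1 to 3 and 1430.5, 1399 and 1513 CPM in TCKO replicates 1 to 3. WT replicate 3 thus stood well above WT replicates 1 and 2, while the TCKO libraries lay close together above it. The ratio of the mean sums was 1.71, and it was 1.72 on size-factor normalized counts and 1.73 on CPM per kilobase of exon.

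**Figure D1:**
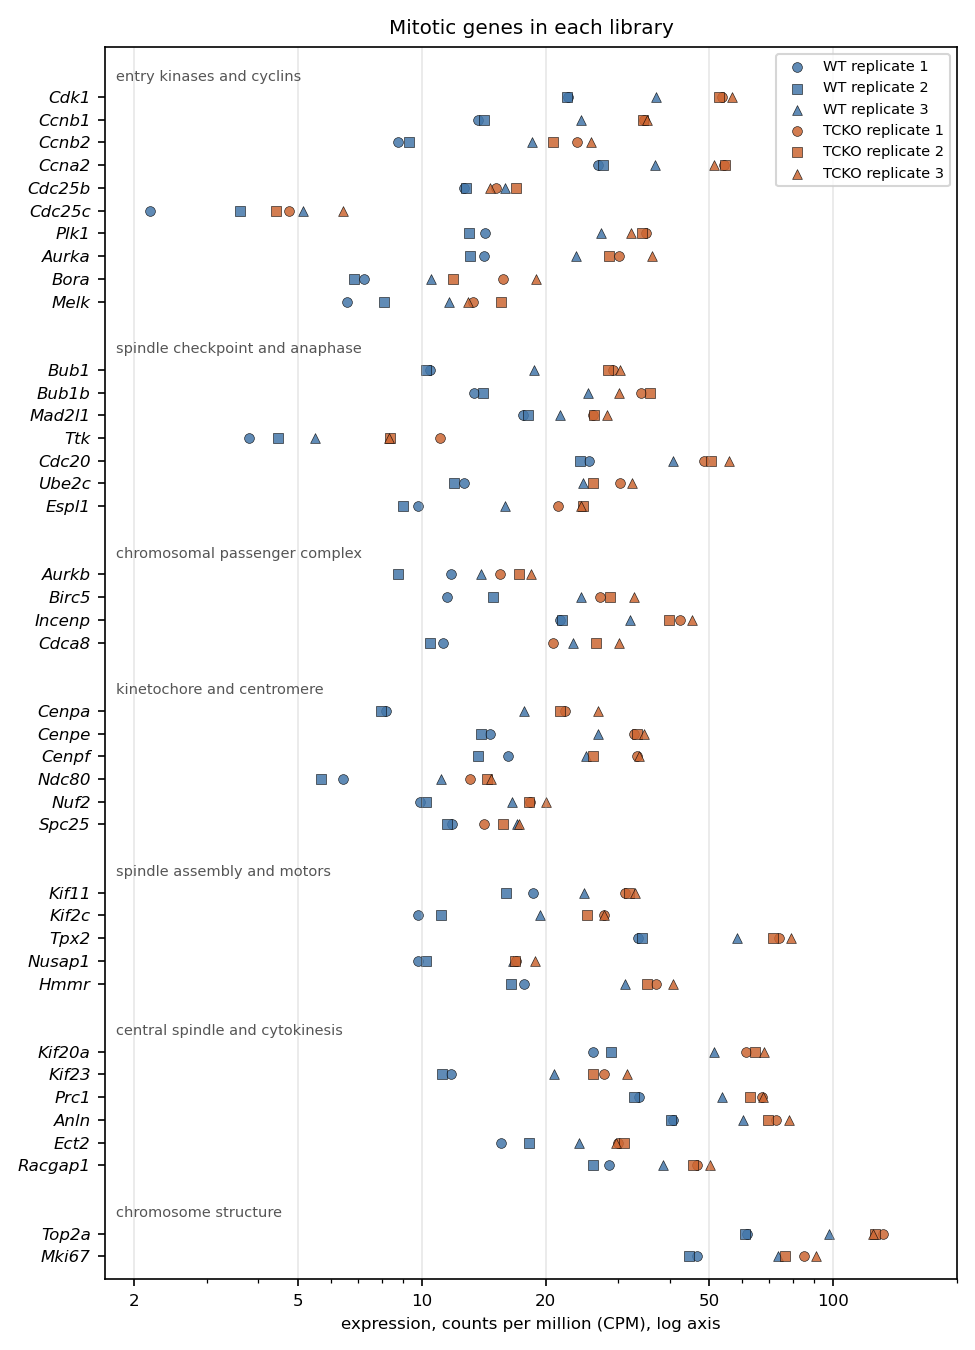
Expression of the 40 mitotic genes in each of the 6 libraries, in CPM on a log axis, with genes grouped by role. Blue symbols are WT and orange symbols TCKO libraries, the shape gives the replicate, and in 36 genes all TCKO symbols lie to the right of all WT symbols, with WT replicate 3 (blue triangle) to the right of WT replicates 1 and 2 in all 40.

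**Figure D2:**
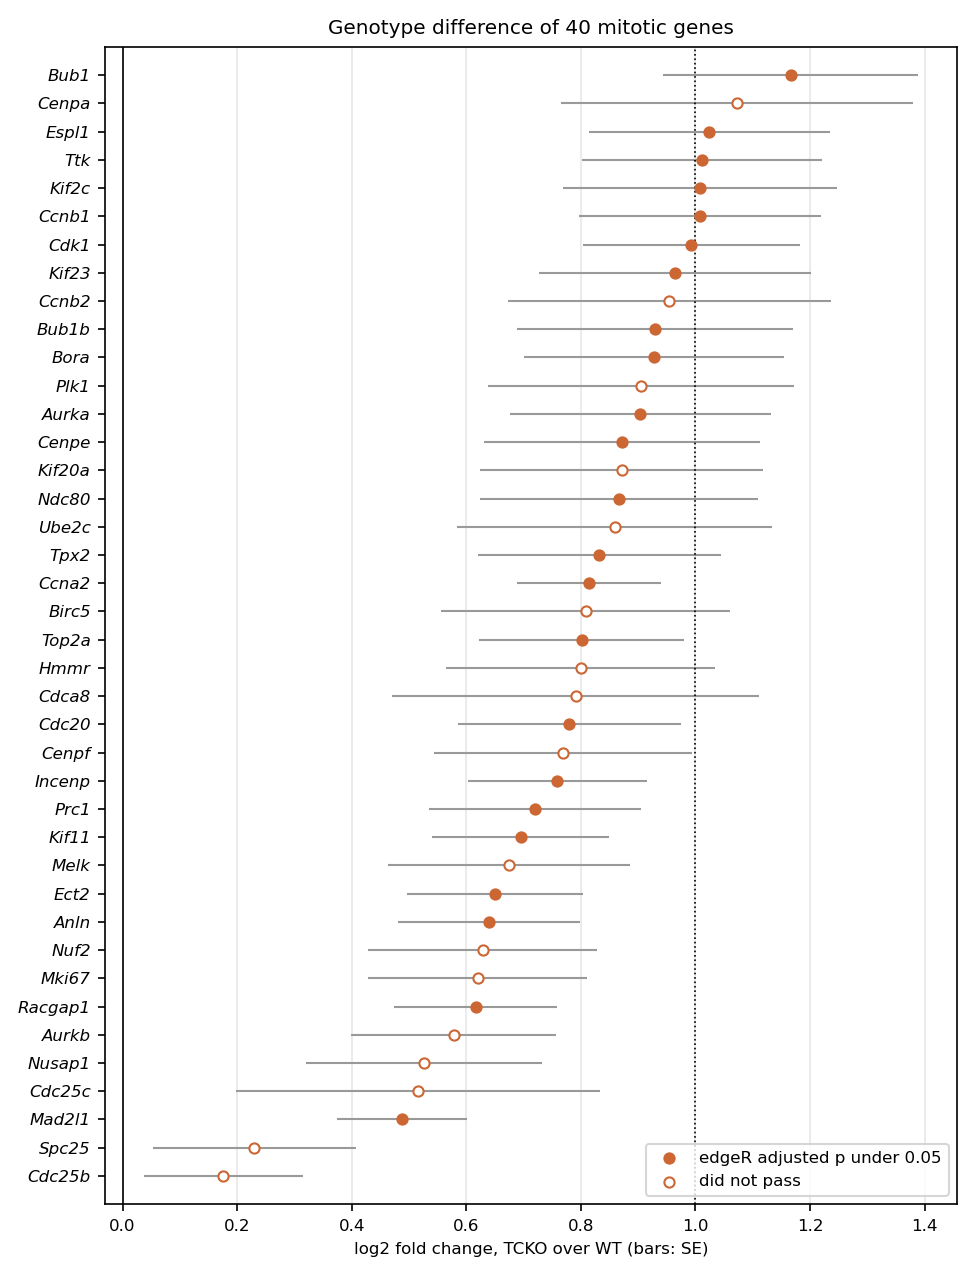
Log2 fold change of each mitotic gene, TCKO over WT, with its SE as a horizontal bar. Filled circles mark the 23 genes with an edgeR adjusted p under 0.05, open circles the 17 that did not pass, the dotted line marks a fold of 2, and the values run from 0.18 (Cdc25b) to 1.17 (Bub1).

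Promoter sequence was described beside the expression values. CCAAT boxes and the CHR are common in promoters of mitotic genes, so their shares describe the chosen genes and not a genotype difference. RefSeq start sites on GRCm38.p6 gave a window of 300 bases, 250 before and 50 after the start, for 33 of the 40 genes. The windows were searched on both strands for CCAAT (read ATTGG on the other strand) and for the CHR as TTTGAA (read TTCAAA on the other strand) or TTCGAA. The CCAAT box was found in 25 of the 33 windows (75.8%), against 37.4% of all 32851 promoters of that length and 37.6% of the 12089 windows of genes tested. A CHR sequence was found in 26 windows (78.8%), against 19.2% of all promoters and 13.6% of those of genes tested. Both stood in 23 windows (69.7%), against 7.53% and 5.48%. The first base of a CCAAT match lay at a median of -66 from the start site, and that of a CHR match at a median of 3. A CHR sequence was present in 16 of the 19 windows of genes that passed the test and in 10 of the 14 windows of genes that did not. The windows held a median of 23 CpG dinucleotides (2 to 34), against 21 in genes tested. A match describes these letters and is no evidence that a factor bound there.

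To show what the fold changes sit beside, the windows of 3 genes with the smallest adjusted p among the 33 genes with a window (Bub1, Cdk1 and Ttk) and of 3 with the largest (Cdca8, Spc25 and Cdc25b) are printed, from 120 bases before to 30 bases after the start, 5′ to 3′ on the strand of the gene. Capitals mark CCAAT and CHR matches on either strand. In Cdca8, a CHR match and an ATTGG share a base, so the capitals run together. The windows lie at chr2:127831830-127831979 (Bub1, minus strand), chr10:69352883-69353032 (Cdk1, minus), chr9:83834569-83834718 (Ttk, plus), chr4:124936888-124937037 (Cdca8, minus), chr2:69206184-69206333 (Spc25, minus) and chr2:131186828-131186977 (Cdc25b, plus).
Bub1: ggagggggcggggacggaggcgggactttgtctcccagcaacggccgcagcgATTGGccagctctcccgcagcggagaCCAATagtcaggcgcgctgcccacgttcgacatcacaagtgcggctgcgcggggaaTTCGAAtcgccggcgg
Cdk1: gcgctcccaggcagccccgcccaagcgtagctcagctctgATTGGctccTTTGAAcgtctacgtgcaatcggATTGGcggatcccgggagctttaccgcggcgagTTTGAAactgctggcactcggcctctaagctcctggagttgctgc
Ttk: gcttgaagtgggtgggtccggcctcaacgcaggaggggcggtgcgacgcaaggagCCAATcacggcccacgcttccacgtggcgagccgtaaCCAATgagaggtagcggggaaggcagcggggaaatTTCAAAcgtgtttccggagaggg
Cdca8: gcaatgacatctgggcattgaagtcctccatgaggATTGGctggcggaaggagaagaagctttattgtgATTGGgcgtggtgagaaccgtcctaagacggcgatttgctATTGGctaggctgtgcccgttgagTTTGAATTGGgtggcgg
Spc25: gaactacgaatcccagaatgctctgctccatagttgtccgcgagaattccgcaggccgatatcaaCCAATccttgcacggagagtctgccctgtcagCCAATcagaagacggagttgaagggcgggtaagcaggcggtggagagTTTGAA
Cdc25b: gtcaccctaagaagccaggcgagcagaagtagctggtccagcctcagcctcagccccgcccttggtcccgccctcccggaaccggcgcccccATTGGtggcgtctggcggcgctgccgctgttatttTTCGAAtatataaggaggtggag
Both kinds of match were thus present in the printed windows of genes at either end of the range of adjusted p, and the windows of Spc25 and Cdc25b, the pair with the smallest fold changes, hold them as those of Bub1 and Cdk1 do.

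Of the 10 genes of mitotic entry, 5 were higher in TCKO, against 9.44% of all genes tested, and the median log2 fold change was 0.90. Cdk1 (chromosome 10, 69335146 to 69352938), the kinase that drives entry into mitosis, stood at 22.7, 22.5 and 37.0 CPM in WT replicates 1 to 3 and at 53.6, 52.7 and 56.7 CPM in TCKO. The TCKO libraries lay within a narrow range, well above the highest WT library, which was replicate 3. The log2 fold change was 0.99 ± 0.19 (SE, n = 3 per genotype), with an edgeR adjusted p of 0.0116. Ccna2 (chromosome 3, 36564865 to 36572150) encodes cyclin A2, which acts in S phase and up to early mitosis, and had the smallest adjusted p of the 40 genes. Its levels were 26.8, 27.6 and 36.8 CPM in WT and 54.4, 54.6 and 51.3 CPM in TCKO, a log2 fold change of 0.81 ± 0.13 (adjusted p = 0.00399). The genotypes were clearly apart, although 12.5% of the exon length of Ccna2 overlaps Exosc9 on the opposite strand, and the sources used here do not state whether counting used strand. Ccnb1, which encodes cyclin B1, the partner of CDK1, held 13.7, 14.1 and 24.3 CPM in WT and 34.7, 34.5 and 35.2 CPM in TCKO (log2 fold change 1.01 ± 0.21, adjusted p = 0.0163). Several pseudogenes are at least 95% identical to Ccnb1 over 200 bases or more, and 2 of them, Gm12856 and Gm8416, have rows of their own, so its reads may have been split. Aurka, the Aurora kinase of the spindle poles, was higher by 0.90 ± 0.23 (adjusted p = 0.0327). Bora, the cofactor through which Aurora A activates PLK1, was higher by 0.93 ± 0.23 (adjusted p = 0.0257), with 6.83 to 10.5 CPM in WT and 11.9 to 18.9 CPM in TCKO. The other 5 entry genes did not pass. Plk1, the polo-like kinase needed for spindle assembly, had a log2 fold change of 0.90 ± 0.27 (adjusted p = 0.0584), with 14.3, 13.0 and 27.3 CPM in WT and 35.1, 34.3 and 32.2 CPM in TCKO. Its WT replicate 3 thus lay nearer to the TCKO libraries than to the other WT libraries. Ccnb2, the second cyclin B, and Melk, a kinase of dividing cells, had log2 fold changes of 0.95 (adjusted p = 0.0560) and 0.67 (adjusted p = 0.0613) and no overlap between genotypes. The CDC25 phosphatases were the exception in this group, since both had overlapping genotypes. Cdc25b stood at 12.7, 12.8 and 15.9 CPM in WT and 15.2, 17.0 and 14.6 CPM in TCKO (0.18 ± 0.14, adjusted p = 0.419). Cdc25c, the lowest of the 40 genes per kilobase of exon (0.742 CPM per kilobase in WT), stood at 2.19 to 5.15 CPM in WT and 4.42 to 6.42 CPM in TCKO (0.52 ± 0.32, adjusted p = 0.299), and 12.7% of its exon length overlaps Gm3550.

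The spindle checkpoint and anaphase genes had 6 of 7 members higher in TCKO, against 9.44% of all genes tested. Their median log2 fold change was 0.93. Bub1 (chromosome 2, 127801122 to 127831865), a checkpoint kinase of unattached kinetochores, had the largest fold change of the 40 genes. Its levels were 10.5, 10.3 and 18.7 CPM in WT and 29.2, 28.4 and 30.3 CPM in TCKO, a log2 fold change of 1.17 ± 0.22 (adjusted p = 0.0112). No TCKO library came near the WT range. Ttk, the kinase that starts checkpoint signalling and is also known as Mps1, was at 3.80, 4.46 and 5.51 CPM in WT and 11.1, 8.36 and 8.30 CPM in TCKO (1.01 ± 0.21, adjusted p = 0.0135). Espl1 encodes separase, the protease that cuts cohesin at anaphase, and held 9.78, 9.02 and 15.9 CPM in WT and 21.4, 24.6 and 24.4 CPM in TCKO (1.02 ± 0.21, adjusted p = 0.0136). Both genes had a fold just above 2 and no overlap between genotypes. Bub1b, which encodes the checkpoint protein BUBR1, was higher by 0.93 ± 0.24 (adjusted p = 0.0368). It was the one gene of the 23 that lost its call with the replicate number as a block (adjusted p = 0.0575). Mad2l1, the checkpoint protein MAD2, had the smallest change that passed, at 17.6, 18.1 and 21.7 CPM in WT and 26.0, 26.2 and 28.2 CPM in TCKO (0.49 ± 0.11, adjusted p = 0.0217). Cdc20, the activator of the anaphase-promoting complex that the checkpoint restrains, was higher by 0.78 ± 0.19 (adjusted p = 0.0318) and had the highest level per kilobase of exon of all 40 genes, at 16.1 CPM per kilobase in WT and 27.6 in TCKO. Ube2c, the ubiquitin-conjugating enzyme of the same complex, did not pass (0.86 ± 0.28, adjusted p = 0.0724), with 12.7, 11.96 and 24.7 CPM in WT and 30.3, 26.1 and 32.4 CPM in TCKO, and 22.8% of its exon length overlaps Tnnc2 on the opposite strand.

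The chromosomal passenger complex, which corrects faulty attachments and later guides cytokinesis, had 1 of its 4 genes called higher, against 9.44% of all genes tested. Incenp, its scaffold, was at 21.6, 21.9 and 32.0 CPM in WT and 42.4, 39.8 and 45.3 CPM in TCKO (0.76 ± 0.16, adjusted p = 0.0134). The kinase Aurkb had a log2 fold change of 0.58 (adjusted p = 0.0587) and Birc5, which encodes survivin, one of 0.81 (adjusted p = 0.0661), both with no overlap between genotypes. Cdca8, which encodes borealin, had WT replicate 3 at 23.4 CPM, inside the TCKO range of 20.8 to 30.1 CPM, and WT replicates 1 and 2 at 11.3 and 10.4 CPM (0.79 ± 0.32, adjusted p = 0.139). With the replicate number as a block, all 4 genes passed, against 12.7% of all genes tested that were higher. That fit pairs libraries by number, a pairing that these data do not settle for replicates 1 and 2.

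The kinetochore and centromere genes had 2 of 6 members called higher, against 9.44% of all genes tested, with a median log2 fold change of 0.82. Cenpe, the kinetochore motor that brings chromosomes to the metaphase plate, was higher by 0.87 ± 0.24 (adjusted p = 0.0451), and Ndc80, a microtubule-binding subunit of the outer kinetochore, by 0.87 ± 0.24 (adjusted p = 0.0428). The levels of Ndc80 were 6.45, 5.70 and 11.1 CPM in WT and 13.1, 14.4 and 14.7 CPM in TCKO, and a similar transcript, 2700099C18Rik, has its own row. Cenpa, the histone H3 variant that marks centromeres, did not pass despite the second largest fold change of the 40 genes (1.07 ± 0.31, adjusted p = 0.0519). It stood at 8.17, 7.97 and 17.7 CPM in WT and 22.3, 21.6 and 26.8 CPM in TCKO, so that the WT libraries spread over a wide range without reaching the TCKO libraries. Cenpf, a large protein of the outer kinetochore, was close to the threshold (0.77, adjusted p = 0.0533). The other subunits of the NDC80 complex did not pass. Nuf2, the partner of Ndc80, had a log2 fold change of 0.63 (adjusted p = 0.0633), and Spc25, at the inner end of the complex, one of 0.23 ± 0.18 (adjusted p = 0.408). Spc25 stood at 11.9, 11.5 and 17.0 CPM in WT and 14.2, 15.7 and 17.3 CPM in TCKO, and the genotypes overlapped. The difference between Spc25 and its partners was not tested.

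Of the spindle assembly factors and motors, 3 of 5 were higher in TCKO, against 9.44% of all genes tested. Tpx2, which activates Aurora A on spindle microtubules, was at 33.5, 34.3 and 58.4 CPM in WT and 73.6, 71.4 and 78.9 CPM in TCKO (0.83 ± 0.21, adjusted p = 0.0367). Kif11, the motor that pushes spindle poles apart, was higher by 0.69 ± 0.15 (adjusted p = 0.0182), and Kif2c, a kinesin that depolymerises microtubules at centromeres, by 1.01 ± 0.24 (adjusted p = 0.0260). Hmmr and Nusap1, which encode microtubule-binding spindle proteins, had log2 fold changes of 0.80 (adjusted p = 0.0551) and 0.53 (adjusted p = 0.116). The WT replicate 3 value of Nusap1, 16.7 CPM, was just under its lowest TCKO value of 16.8 CPM.

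Of the central spindle and cytokinesis genes, 5 of 6 were higher in TCKO, against 9.44% of all genes tested. Their folds were smaller (median log2 fold change 0.69), and differences between the groups of mitotic genes were not tested. Anln, the actin-binding scaffold anillin of the cleavage furrow, stood at 40.9, 40.3 and 60.5 CPM in WT and 72.7, 69.4 and 78.2 CPM in TCKO (0.64 ± 0.16, adjusted p = 0.0297). Racgap1 and Kif23, which together form centralspindlin, were higher by 0.62 ± 0.14 (adjusted p = 0.0210) and 0.96 ± 0.24 (adjusted p = 0.0299). Ect2, the exchange factor that activates RhoA at the furrow, was higher by 0.65 ± 0.15 (adjusted p = 0.0231), and Prc1, which bundles antiparallel microtubules, by 0.72 ± 0.19 (adjusted p = 0.0355). Exons of Prc1 overlap Rccd1 over 11.1% of their length. Kif20a, a kinesin of the central spindle, did not pass (0.87 ± 0.25, adjusted p = 0.0538), and 29.3% of its exon length overlaps Cdc23 on the opposite strand.

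Of the chromosome structure genes, Top2a, the topoisomerase that untangles sister chromatids, was higher in TCKO. It stood at 61.8, 60.9 and 97.4 CPM in WT and 132, 126 and 125 CPM in TCKO (0.80 ± 0.18, adjusted p = 0.0226). Mki67, which encodes the proliferation marker Ki-67 that coats mitotic chromosomes, was at 46.7, 44.5 and 73.2 CPM in WT and 85.0, 76.4 and 90.7 CPM in TCKO. Its genotypes did not overlap, and the adjusted p was 0.0646 at a log2 fold change of 0.62 ± 0.19.

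The replicates were then examined separately, because WT replicate 3 recurred as the highest WT library. WT replicate 3 was above WT replicates 1 and 2 in 40 of 40 mitotic genes, against 41% of all genes tested, by a median of 0.72 on the log2 scale. TCKO replicate 3 was above TCKO replicates 1 and 2 in 30 of 40 genes, against 40.6% of all genes tested, by a median of 0.12. Within replicates 1 and 2, the genotypes differed by a median log2 of 1.06 (0.32 to 1.43), with all 40 genes higher in TCKO. Within replicate 3 the median was 0.39 (-0.12 to 0.82), and 39 of the 40 were higher in TCKO, Cdc25b being the exception. The difference was larger within replicates 1 and 2 for all 40 genes. It was closest to equal in Bora, at 0.91 and 0.82, and was 1.32 and 0.23 in Plk1. With 1 library per genotype in replicate 3, the change of the difference between replicate sets was not tested. The summed level was 2.03 times higher in TCKO in replicates 1 and 2, and 1.33 times higher in replicate 3. In WT replicate 3, the 40 genes summed to 1.64 times their mean in WT replicates 1 and 2. Macrophage markers summed to 0.553, chondrocyte markers to 1.27, muscle markers to 2.27, keratinocyte markers to 0.294 and osteoblast markers to 0.946 times theirs. Markers within a list moved both ways. In WT replicates 1 to 3, Adgre1 (listed as Emr1) was at 28.9, 33.3 and 49.3 CPM and Sox9 at 75.2, 70.0 and 51.1 CPM. Of the osteoblast markers, Sp7 was at 74.2, 73.8 and 199 CPM, Alpl at 20.6, 18.7 and 61.8 CPM and Sparc at 10942, 11102 and 9445 CPM. The muscle sum was 8.98 times higher in TCKO within replicates 1 and 2 and 1.799 times higher within replicate 3. The part of these markers in the differences was not tested.

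**Figure D3:**
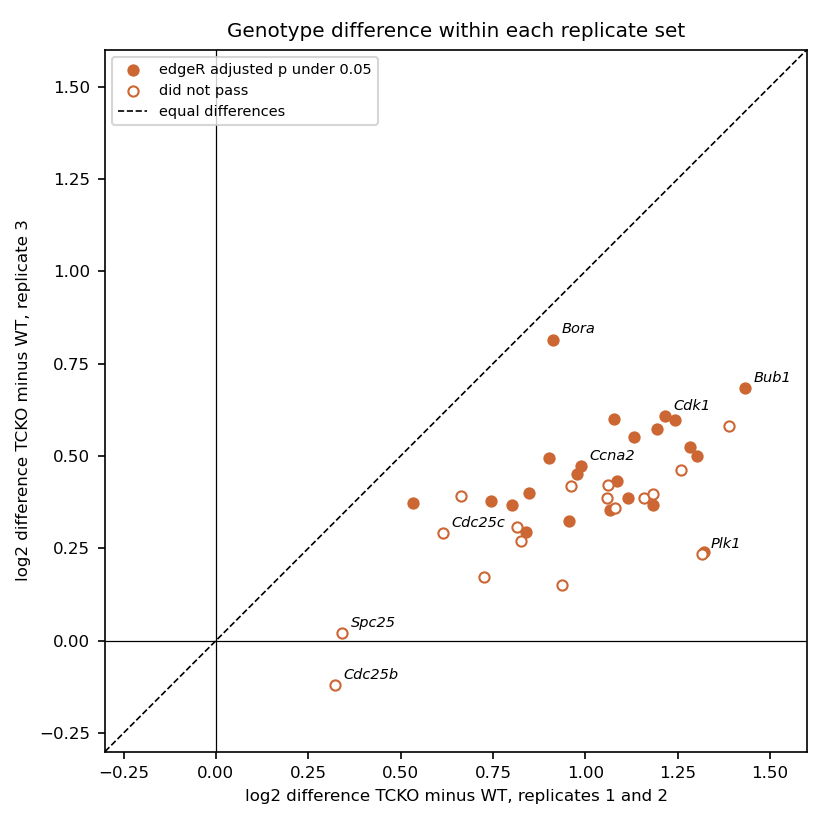
Log2 difference between TCKO and WT within replicate 3 (vertical axis) against that within replicates 1 and 2 (horizontal axis), 1 point per mitotic gene, filled where the edgeR adjusted p over all libraries was under 0.05. All 40 points lie under the dashed line of equal differences, and Cdc25b, at -0.12, is the one point below 0 in replicate 3.

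The number of genes called rested on how the replicates were treated. With the replicate number as a block, 35 of the 40 genes were higher in TCKO, against 12.7% of all genes tested. That fit pairs libraries by number, and these data do not show how replicates 1 and 2 pair across genotypes. Of the 23 genes, 22 were called in both fits, 13 others were called with the block alone, and 4 (Cdc25b, Cdc25c, Spc25 and Plk1) with neither. DESeq2 and limma-voom each called 35, against 8.09% and 9.52% of genes tested. When replicates 1 and 2 of each genotype were summed to 1 library, edgeR called 0 of the 40 genes, the smallest adjusted p being 0.1001, against 1.36% of all genes tested. At an unadjusted p under 0.05, 22 of the 40 were higher in that fit, against 9.53% of all genes tested. With replicates 1 and 2 alone all 40 passed, against 23.6%. Leaving out WT replicate 3 gave 37 genes (12.2% of all genes tested), and leaving out TCKO replicate 3 gave 15 (10.9%). The number was 3 when either WT replicate 1 (4.55%) or WT replicate 2 (4.4%) was left out, 4 for TCKO replicate 1 (5.03%) and 6 for TCKO replicate 2 (5.16%). Cdk1, Ccna2 and Bub1 were called with any 1 library left out, and the other 20 genes were lost with at least 1. In each of these fits, all 40 fitted log2 fold changes were above 0.

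**Figure D4:**
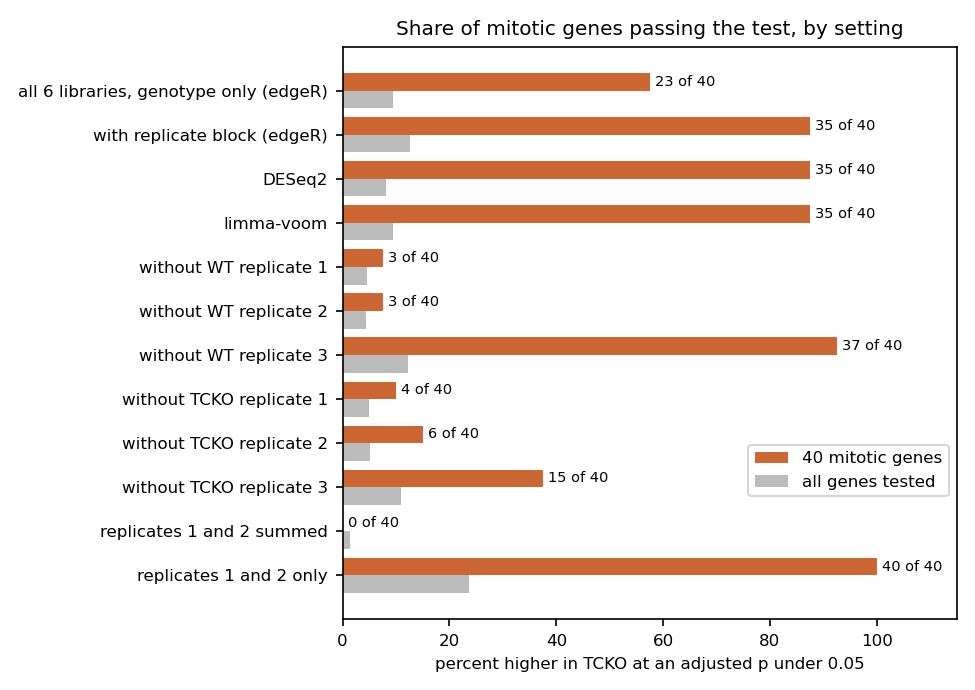
Percent of the 40 mitotic genes (orange bars, with the number of genes) and of all genes tested (grey bars) that were higher in TCKO at an adjusted p under 0.05, by setting. The share of mitotic genes runs from 0 of 40 with replicates 1 and 2 summed to 40 of 40 with replicates 1 and 2 alone, and is 23 of 40 with all 6 libraries and genotype as the one term.

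Other genes of cell division were compared by lists that share no gene with the 40 and were also chosen with earlier results known. Of 136 further genes in 7 mitotic lists, 35 (25.7%) were higher in TCKO and 1 was lower, against 9.44% higher and 8.9% lower among all genes tested, with a median log2 fold change of 0.34. Other spindle and motor genes had 8 of 24 higher and a median of 0.71, led by Kif20b (0.85, adjusted p = 0.0132) and Spag5 (0.90, adjusted p = 0.0223), and other kinetochore genes had 7 of 34 higher and a median of 0.56. Zwint, a kinetochore protein that recruits the checkpoint, was higher by 0.72 (adjusted p = 0.00587), and Cenph, a subunit of the inner kinetochore, by 1.37 (adjusted p = 0.0197). Of the condensin and cohesion genes, 8 of 18 were higher, among them the condensin subunits Smc2 (0.76, adjusted p = 0.00554) and Ncapd2 (0.78, adjusted p = 0.00735), with a median of 0.25. Of the mitotic entry regulators, 4 of 14 were higher, and Cks1b, the small subunit that binds CDK1, stood at 26.9, 30.8 and 34.5 CPM in WT and 57.7, 51.4 and 63.3 CPM in TCKO (0.90 ± 0.12, adjusted p = 0.00186). Cks1b was the one gene of the 7 lists that passed with replicates 1 and 2 summed (adjusted p = 0.0464). This is 1 of 136 genes, against 1.36% of all genes tested that were higher in that fit. Anaphase-promoting complex genes had a median of -0.02, and 2 of 17 (11.8%) were higher, a share near the 9.44% of all genes tested. These, Ube2s and Fbxo5, encode a ubiquitin-conjugating enzyme and an inhibitor of the complex. Centriole duplication genes had 2 of 11 higher, Plk4 and Stil, and a median of 0.18.

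Regulators of mitotic gene transcription had 4 of 18 higher (22.2%) and 1 lower, with a median of 0.20. Of all genes tested, 9.44% were higher and 8.9% lower. Mybl2 (B-MYB) was at 5.06, 3.42 and 5.39 CPM in WT and 11.1, 11.2 and 11.5 CPM in TCKO, a log2 fold change of 1.29 ± 0.20 (adjusted p = 0.00365). The TCKO libraries lay close together above the WT range. Foxm1 was at 25.7, 22.5 and 32.2 CPM in WT and 44.5, 39.1 and 46.7 CPM in TCKO (0.70 ± 0.14, adjusted p = 0.0118). Lin54, the MuvB subunit that reads the CHR, did not pass (0.28, adjusted p = 0.149). Rb1, the retinoblastoma protein that restrains E2F, was lower (-0.26, adjusted p = 0.0437).

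Genes of DNA replication and the G1/S transition were higher in 29 of 53 cases (54.7%) and lower in 1, against 9.44% and 8.9% of all genes tested, with a median log2 fold change of 0.49. Mcm6, a subunit of the replicative helicase, stood at 30.2, 32.7 and 32.1 CPM in WT and 74.0, 73.7 and 59.8 CPM in TCKO (1.13 ± 0.10, adjusted p = 0.000407). Here WT replicate 3 lay between the other WT libraries, and Mcm6 and Uhrf1 passed also with replicates 1 and 2 summed (adjusted p = 0.0313 and 0.0455). They were 2 of the 53 genes, against 1.36% of all genes tested that were higher in that fit. Over the 53 genes, WT replicate 3 stood above WT replicates 1 and 2 by a median log2 of 0.22, and the genotypes differed by a median of 0.55 within replicates 1 and 2 and of 0.42 within replicate 3. The gene that fell was Ccnd1, which encodes the G1 cyclin D1. It went from 940, 905 and 543 CPM in WT to 191, 190 and 257 CPM in TCKO (-1.91 ± 0.24, adjusted p = 0.00294). Of the CDK inhibitors and p53 targets, 1 of 22 (4.55%) was higher and 4 were lower, against the same 9.44% and 8.9%, with a median of -0.21. The inhibitor Cdkn2b (p15) fell by 1.12 on the log2 scale (SE 0.19, adjusted p = 0.00789), Sesn2 fell by 0.39 (adjusted p = 0.00765), and Plk2, a polo-like kinase outside mitosis, was higher by 1.32 (adjusted p = 0.0243).

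**Figure D5:**
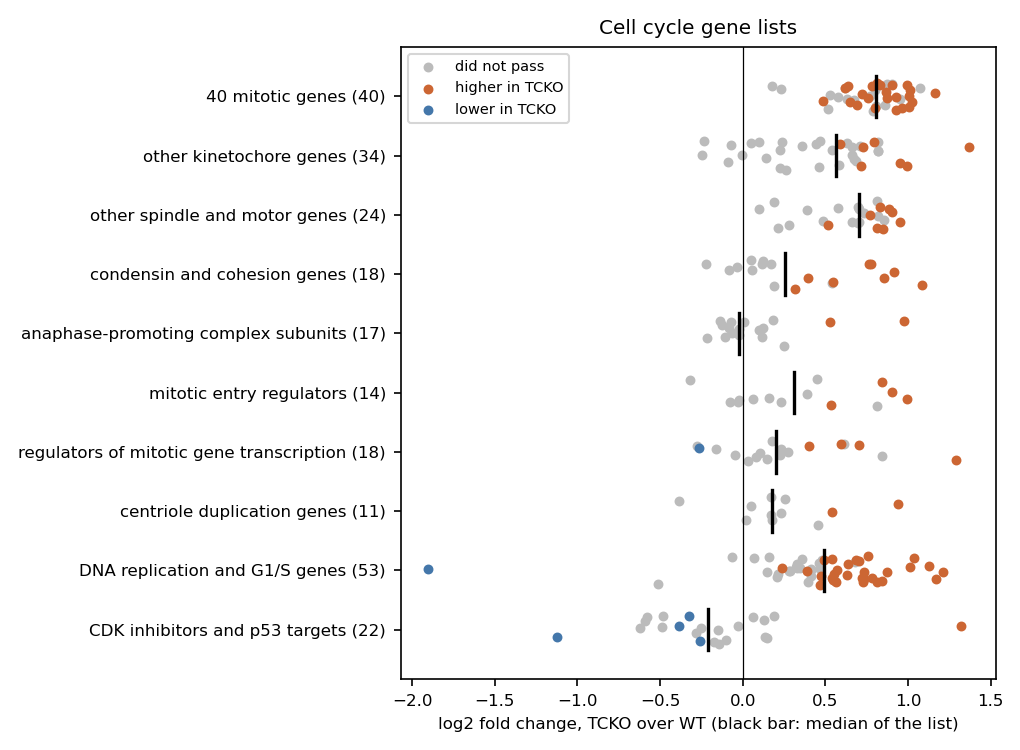
Log2 fold change, TCKO over WT, of every gene in the cell cycle lists, 1 point per gene, with the number of genes in parentheses and a black bar at the median of each list (points are spread vertically for legibility). The 40 mitotic genes have the highest median, 0.80, followed by other spindle and motor genes at 0.71 and other kinetochore genes at 0.56, and the blue point at -1.91 is Ccnd1.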

How the data were processed

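RNA-seq counts of 3 WT and 3 TCKO osteoblast libraries were used. The values used were unnormalized counts of reads, deposited by gene symbol. The authors aligned reads to GRCm38, with HISAT2 per the submitters' processing notes and with STAR per the published methods, and no counting program is named in the sources read here. Beside the counts stood the authors' own normalized means, fold changes, p-values and FDR, which were not used. The table lists 16455 genes, each with at least 10 reads over the 6 libraries.

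Differences were tested with edgeR 4.0.16 (R 4.3.3). The filterByExpr function retained 13630 genes and set 2825 aside, libraries were scaled by TMM, and glmQLFit (robust) and glmQLFTest were run with genotype as the one term. P-values are 2-sided and adjusted by Benjamini-Hochberg over all genes tested. A gene was called at an adjusted p under 0.05. Each SE is the absolute log2 fold change over the root of its F statistic. Levels are CPM of TMM-scaled libraries, and differences within sets of replicates are on the log2 scale of CPM plus 0.5. Counts from 8119261 to 10657824 reads per library limit the precision of genes with few reads, and no molecular identifiers were used.

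The 40 genes and the lists beside them were chosen with earlier results of these data known. Of each other list, up to 3 genes with the smallest adjusted p and up to 2 with the largest change at a mean of 1 CPM or more could be named, together with Foxm1, Mybl2, Lin54 and the Tet genes. Some that meet this rule are not named. Rb1 was named after its values were seen, as the one gene of the mitotic lists that fell.

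The replicate numbers come from the sample titles. Deviations from the genotype means correlated between same-numbered libraries at 0.192, 0.195 and 0.332, all above 0.1, and also between WT replicate 1 and TCKO replicate 2 (0.180) and WT replicate 2 and TCKO replicate 1 (0.246). Pairs of replicate 3 of one genotype with replicate 1 or 2 of the other gave -0.284 to -0.234. Deviations of the 3 libraries of a genotype cancel out for each gene, so the negative values follow in part from the positive ones. The correlations set replicate 3 apart but do not show how replicates 1 and 2 pair across genotypes. Fits with the replicate number as a block are given where they change a count, and the main fit has no block. Alternatives were DESeq2 1.42.0, limma-voom (limma 3.58.1), other scalings and filters, each library left out, and replicates 1 and 2 summed or alone. Gene positions, exon lengths and overlaps come from GENCODE M21, copies from alignment of its transcripts with BLAST+ 2.17.0 (at least 95% identity over 200 bases), and promoter windows from RefSeq on GRCm38.p6. Of the 40 genes, 11 share exon bases with another annotated gene and 6 have such a copy. Where RefSeq gave more than 1 window, the one nearest the GENCODE start was used.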

Additional observations from a re-analysis of the deposited data

How the results depend on the processing

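With replicate 3 alone, the median log2 fold change of the 40 mitotic genes was 0.39 and that of Cdc25b turned to -0.12, both values with no test. With the replicate block, 35 of 40 mitotic genes were higher, as were 57 of the 136 other mitotic genes, against 12.7% of all genes tested. The numbers for the replication list and for all genes stayed within 1.5 times. DESeq2 and limma-voom each called 35 of 40, against 8.09% and 9.52% of genes tested, and limma-voom gave 10 at a fold above 2. Outside the main fit, no share of all genes was computed at a fold above 2. Median-of-ratios and upper-quartile scaling, no filter and a minimum of 1 CPM in 3 libraries each left 23 of 40 called. Leaving out 1 library gave 3 to 37 mitotic genes higher, 1 to 24 at a fold above 2. The median log2 fold change was 0.67 to 1.14. These fits gave 7 to 58 other mitotic genes and 16 to 36 replication genes higher. Among all genes, 612 to 1702 were higher (4.4% to 12.2% of genes tested) and 578 to 1611 lower. The lowest count, 3 of 40 (7.5%), stood beside 4.55% or 4.4% of all genes tested. With replicates 1 and 2 summed the numbers were 0, 0 at a fold above 2, 1 and 2. Among all genes, 197 were higher (1.36% of genes tested) and 156 lower. With replicates 1 and 2 alone they were 40, 23 at a fold above 2, and 80 other mitotic genes. Among all genes, 3243 were higher (23.6% of genes tested) and 3128 lower. The cause of these shifts was not tested, and fewer libraries enter the last 3 settings. A fit that left out 1 library kept 5, and its spread was estimated over both genotypes together. Depth limits Cdc25c, which had 19 reads in WT replicate 1.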
